A study of Malus domestica with 16 samples.

Results

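Polyphenol oxidase (PPO, gene model MDP0000699845) and the peroxidase MdPOX (MDP0000209189) were followed in the peel of stored Granny Smith apples. Each gene was taken as the sense probe that carries its gene model name, which gave 2 members of the 59208 sense probes of gene models on the array. The probe sequences and the places of the genes in the apple genome were not used here. Peel RNA came from wild-type fruit after 6 months of cold storage, which every group shared, at 0 °C in air of 95% relative humidity. By the study's methods, the fruit was harvested physiologically mature and sampled for the arrays straight after storage, before ripening at room temperature. The study calls this stage presymptomatic, though its results report some scald in control and ozone-treated fruit at that time. The 1-MCP fruit had been exposed to 1-methylcyclopropene for 24 h before storage, at 1000 ppm by the sample labels. The study's methods give a far lower dose, in µl/L, so that the label value may be wrong. The O3 fruit had been stored in air enriched with ozone at 0.3 µl/L, the 1-MCP+O3 fruit had received both, and the Control fruit neither. The groups were each represented by 2 RNA extracts, here A and B, made from the peel of 7 apples apiece. Pairs of extracts were labelled with Cy3 and Cy5 and hybridized to 8 two-colour Agilent arrays, 2 for each of the comparisons 1-MCP vs Control, O3 vs Control, 1-MCP+O3 vs Control and 1-MCP+O3 vs O3.

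PPO is a copper enzyme of plastids that oxidizes diphenols such as chlorogenic acid to quinones, which then polymerize to brown pigments. Plant peroxidases of the secretory type use hydrogen peroxide to oxidize phenolics in the cell wall and the vacuole, lignin precursors among them. Superficial scald is a browning of the peel that appears after long cold storage, and both enzymes have long been studied as catalysts of the phenolic oxidation behind it. 1-MCP occupies the ethylene receptors and so blocks the perception of ethylene, and it is used commercially against scald. Ozone is a strong oxidant gas that is used to keep storage rooms clean.

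The primers below are those the study designed to measure the MdPOX transcript by RT-qPCR, and they are printed because they tie the name MdPOX to a transcript. Both are given 5′ to 3′ as designed.
MdPOX forward: tgtcattattattccttcttgttg
MdPOX reverse: aaccgaagcatcacatcc
RT-qPCR values were not used here. The study had picked MdPOX for RT-qPCR from the results of these arrays, so its array values are not independent of that choice.

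The arrays each held 176026 spots besides controls, of which 47.8% to 54.9% exceeded background clearly in the Cy3 channel and 36.1% to 43.6% in the Cy5 channel. PPO and MdPOX lay above background in all 16 channels, with no saturated spot and no outlier spot. The brightest PPO spot reached 88.3% of the value at which the scanner saturates. The dyes were switched between replicates, with the first-named group in Cy3 on the array of replicate A and in Cy5 on that of replicate B, so that dye and replicate cannot be told apart within a comparison. The O3 extracts alone were read in both dyes. The labelled tissue was not checked against marker genes. In extracts of whole peel, fewer cells that express a gene and less of its RNA per cell cannot be told apart.

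PPO was low in both groups that had received 1-MCP and highest in O3 fruit. These directions follow the dyes in the labels, whereas the study's text words the change of this PPO gene as an increase shared by both treatments. On the log2 scale of normalized single-channel intensity, and after averaging the hybridizations of each extract, PPO was at 10.81 and 8.79 in the 1-MCP extracts A and B. The O3 extracts were at 15.45 and 14.59, the 1-MCP+O3 extracts at 12.09 and 12.20, and the Control extracts at 13.95 and 14.29. In the falling order O3, Control, 1-MCP+O3, 1-MCP, no group overlapped its neighbour. The narrowest gap, 0.30, was between the lower O3 extract and the higher Control extract. It lay within the span of 0.13 to 0.92 that repeated hybridizations of 1 extract covered for PPO. The gap between the Control and the 1-MCP+O3 extracts was 1.74, and that between the 1-MCP+O3 and the 1-MCP extracts was 1.29. The 1-MCP extracts, each hybridized 1 time, differed from each other by 2.02, which is more than either gap.

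MdPOX had another order. Its levels were 12.06 and 9.34 in the 1-MCP extracts A and B, and 12.43 and 12.49 in the O3 extracts. They were 12.11 and 11.31 in the 1-MCP+O3 extracts and 10.82 and 11.20 in the Control extracts. O3 fruit was highest with nearly equal extracts, whereas the 1-MCP extracts lay 2.72 apart, above the Control extracts in replicate A and below them in replicate B. O3 and 1-MCP+O3 were separated by a gap of 0.31 and 1-MCP+O3 and Control by a gap of 0.10, both within the span of 0.09 to 0.79 that repeated hybridizations of 1 extract covered. Control and 1-MCP overlapped.

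**Figure D1:**
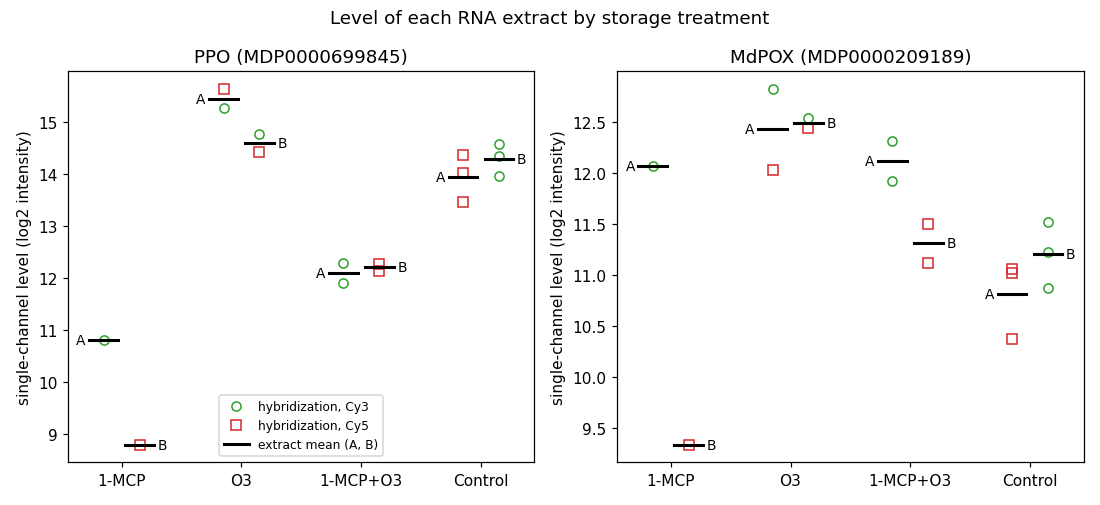
Single-channel level of PPO (left) and MdPOX (right) on a log2 intensity scale in 1-MCP, O3, 1-MCP+O3 and Control peel. Open circles are hybridizations in Cy3, open squares hybridizations in Cy5, and bars the means of extracts A and B. PPO is lowest in the 1-MCP extracts (10.81 and 8.79) and the 1-MCP extracts of MdPOX (12.06 and 9.34) lie on both sides of the Control extracts.

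Over the 8 extracts, PPO averaged 10.97 in the 4 extracts with 1-MCP and 14.57 in the 4 without, a difference of -3.60 on the log2 scale, or 12.1-fold lower. The ranges were 8.79 to 12.20 with 1-MCP and 13.95 to 15.45 without, and they did not overlap. An exact two-sided permutation test that kept the O3 status of each extract gave p = 0.0556, the smallest p that the 36 arrangements allow. The 4 extracts with O3 averaged 13.58 and the 4 without averaged 11.96, a difference of 1.63 or 3.09-fold. The corresponding exact permutation test, with the 1-MCP status kept, also gave its smallest possible p of 0.0556. This design cannot pass a threshold of 0.05 for either treatment. For MdPOX, the 4 extracts with O3 averaged 12.08 and those without averaged 10.85, a difference of 1.23 (exact permutation p = 0.111). The difference was 1.91 without 1-MCP replicate A and 0.55 without 1-MCP replicate B. With and without 1-MCP, MdPOX averaged 11.21 and 11.73 (exact permutation p = 0.5), and this difference of -0.53 changed sign to 0.15 without 1-MCP replicate B.

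The first comparison, 1-MCP vs Control, asks what blocking ethylene perception before storage did. In replicate A, PPO had a raw intensity of 3409 in 1-MCP peel (Cy3) and 15821 in Control peel (Cy5). In replicate B it had 398.5 in 1-MCP peel (Cy5) and 40035.5 in Control peel (Cy3). PPO was thus dimmer in 1-MCP peel on both arrays, with log2 ratios of -3.21 and -5.78 after loess normalization of the dyes. The mean ratio of -4.50 corresponds to a 22.6-fold lower level, but its 95% confidence interval ran from -7.06 to -1.93 because the arrays differed by 2.57. Genes are called here where limma's unadjusted p is under 1%, the threshold of the study's methods, and PPO missed it in this comparison (limma adjusted p = 0.35). It passed in joint fits of the 8 arrays, with limma adjusted p = 0.0163 without a dye term and adjusted p = 0.00764 with one. Those fits take repeated hybridizations of an extract as independent. It also passed with either array left out, at -5.78 and -3.21, where the lone array is assumed to vary like those of the other comparisons.

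MdPOX had a raw intensity of 8200 in 1-MCP peel and 2128.5 in Control peel in replicate A, against 586.5 in 1-MCP peel and 4702 in Control peel in replicate B. The log2 ratios were 1.01 and -2.18. The arrays therefore gave opposite directions, and the mean of -0.59 had an interval of -3.76 to 2.59 and an adjusted p of 1 in limma. These data set no direction for MdPOX after 1-MCP alone. Neither gene was called in 1-MCP vs Control, where 4.63% of sense probes were, made up of 2.26% upward and 2.37% downward.

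The second comparison, O3 vs Control, asks what the ozone-enriched air did without 1-MCP. PPO had 57107 in O3 peel (Cy3) and 7719.5 in Control peel (Cy5) in replicate A, and 11639.5 in O3 peel (Cy5) and 27756.25 in Control peel (Cy3) in replicate B. Cy3 gave the brighter raw signal on both arrays. After loess the log2 ratios were 1.81 and 0.46, both higher in O3 peel, with a mean of 1.13 (95% confidence interval -0.25 to 2.52). The adjusted p was 0.956 in limma, and PPO was not called.

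MdPOX rose with O3. It had 9929 in O3 peel and 970.25 in Control peel in replicate A, and 3284.5 in O3 peel and 2980 in Control peel in replicate B. The log2 ratios of 2.45 and 1.57 were both above 0, and their 95% confidence interval of 1.08 to 2.94 excluded 0. MdPOX was called up and PPO was not, in a comparison in which 2.45% of sense probes were called and 1.71% were called up. The adjusted p was 0.63 in limma. MdPOX lost the call in the joint fit without a dye term (1.86) and with either array left out (1.57 and 2.45).

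The third comparison set fruit with both treatments against Control. In replicate A, PPO had 10531 in 1-MCP+O3 peel (Cy3) and 8206.5 in Control peel (Cy5). In replicate B it had 2596.25 in 1-MCP+O3 peel (Cy5) and 36850 in Control peel (Cy3). Loess turned the order on the array of replicate A, and the scanner software's own dye normalization turned it too, with processed intensities of 11428 in 1-MCP+O3 peel and 45922 in Control peel. The normalized log2 ratios of -2.09 and -2.21 were nearly equal, the closest pair among the 4 comparisons for PPO. PPO was called down and MdPOX was not called, where 3.62% of sense probes were called and 1.57% were called down. The PPO level was 4.44-fold lower, with an interval of -2.51 to -1.79 on the log2 scale and an adjusted p of 0.337 in limma. With median centring in place of loess the ratio was -1.82 and the call was lost, as it was with either array left out.

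MdPOX had 10171.5 in 1-MCP+O3 peel and 819.25 in Control peel in replicate A, and 2165.5 in 1-MCP+O3 peel and 4226.25 in Control peel in replicate B. Its log2 ratios were 1.29 and 0.28, with a mean of 0.78 and an interval of -0.27 to 1.83. In 1-MCP+O3 replicate B the duplicate spots disagreed, at 930 and 3401 in Cy5, and gave ratios of -0.39 and 0.95. The first spot alone gave a mean ratio of 0.36, which was not called, and the second spot alone gave 1.21, which was. For the other arrays the duplicate spots of MdPOX differed by at most 0.34 in log2 ratio and those of PPO by at most 0.57.

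The last comparison, 1-MCP+O3 vs O3, shows 1-MCP against a background of ozone. PPO had 6144.5 in 1-MCP+O3 peel (Cy3) and 20978 in O3 peel (Cy5) in replicate A. In replicate B it had 2534.25 in 1-MCP+O3 peel (Cy5) and 47400.75 in O3 peel (Cy3). PPO fell on both arrays, with log2 ratios of -3.73 and -2.50, a mean of -3.12 and an 8.66-fold lower level (interval -4.51 to -1.72). It was called down, in a comparison in which 3.09% of sense probes were called and 1.72% were called down, and its adjusted p was 0.491 in limma. MdPOX had 6093 in 1-MCP+O3 peel and 1823.75 in O3 peel in replicate A, and 1198.5 in 1-MCP+O3 peel and 9572 in O3 peel in replicate B. Its log2 ratios of -0.11 and -1.42 had a mean of -0.76 (interval -2.23 to 0.70) and did not pass the test. The PPO call was lost without background correction (-3.13), with the second spot of the probe alone (-3.19) and with either array left out.

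**Figure D2:**
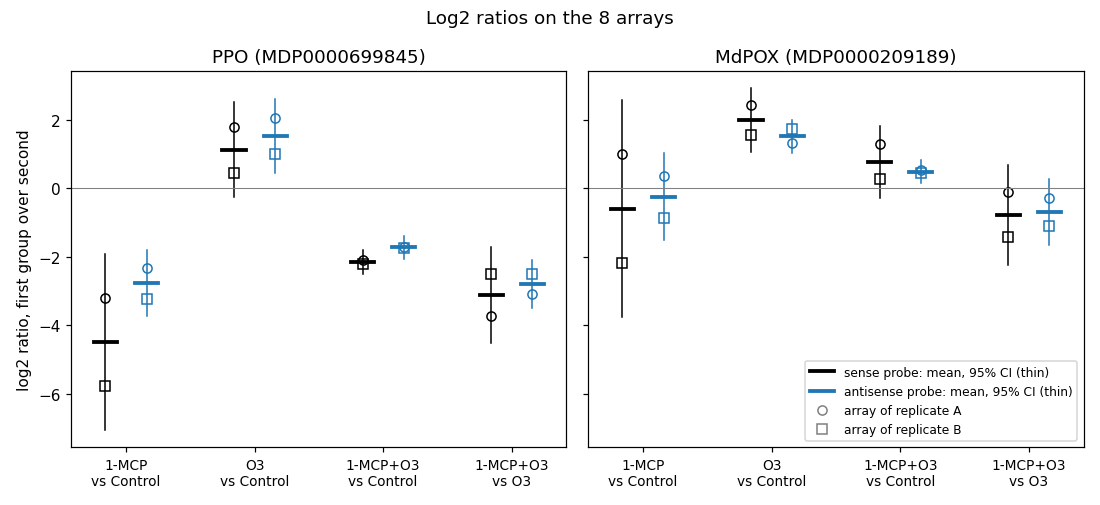
Log2 ratios (first-named group over second) of PPO (left) and MdPOX (right) in the 4 comparisons, for the sense probe in black and the antisense probe in blue. Circles and squares are the arrays of replicates A and B, thick bars their means and thin bars 95% confidence intervals from limma. PPO lies below 0 on all 6 arrays that set 1-MCP or 1-MCP+O3 fruit against fruit without 1-MCP, while MdPOX lies on both sides of 0 in 1-MCP vs Control.

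The scatter of MdPOX ran with replicate and dye. Its ratio was higher in replicate A, where the first-named group was in Cy3, than in replicate B in 4 of 4 comparisons, by 0.88 to 3.18. Of the 59194 sense probes with values on every array, 21.6% had the higher ratio in replicate A in every comparison and 18.9% the lower one, so the pattern was common on these arrays. For PPO the ratio in replicate A was the higher one in 3 of 4 comparisons. The part of the dye in the scatter of either gene was not tested.

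Whether 1-MCP and O3 acted additively was asked in 2 ways, both on the log2 scale, on which additive effects are effects that multiply the level. The direct way set the ratio of 1-MCP+O3 vs O3 minus that of 1-MCP vs Control, over 4 arrays that share no extract. For PPO this difference was -0.52 in replicate A and 3.28 in replicate B. In replicate A the fall after 1-MCP was thus slightly larger in O3 peel than in fruit without O3, and in replicate B it was much smaller. The mean of 1.38 had a 95% confidence interval of -1.69 to 4.45 and an adjusted p of 1 in limma, so that it covered additivity and also departures of several fold in both directions. For MdPOX the difference was -1.12 in replicate A and 0.76 in replicate B, with a mean of -0.18 and an interval of -3.88 to 3.53. Neither gene passed the unadjusted 1% threshold, which 0.441% of sense probes passed, 0.242% upward and 0.199% downward. The 1-MCP vs Control arrays lay on 1 slide and the 1-MCP+O3 vs O3 arrays on the other, so a difference between slides cannot be told apart from this contrast.

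The second way compared 1-MCP+O3 vs Control with the sum of the single treatments over Control, comparisons that share the same Control extracts. For PPO the measured ratio was -2.09 and the sum -1.40 in replicate A, and the measured ratio was -2.21 and the sum -5.32 in replicate B. The measured ratios hardly differed between replicates, and the sums differed widely because the 1-MCP vs Control ratios did. The mean departure of 1.21 had an interval of -1.83 to 4.25. For MdPOX the measured ratio was 1.29 and the sum 3.46 in replicate A, and the measured ratio was 0.28 and the sum -0.61 in replicate B. The combined level was below the sum in 1 replicate and above it in the other, with a mean departure of -0.64 (interval -4.26 to 2.97). Without the 1-MCP vs Control array of replicate A the direct difference was 2.66 for PPO and 1.41 for MdPOX, and without that of replicate B it was 0.10 and -1.77.

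The arrays of 1-MCP+O3 vs O3 also allow a check of the chain through Control. The direct PPO ratios of -3.73 and -2.50 stood beside -3.89 and -2.67 by way of Control in replicates A and B. Both ways gave PPO nearly the same value in each replicate. For MdPOX the direct ratios of -0.11 and -1.42 stood beside -1.16 and -1.29 by way of Control, so that they disagreed by about 1 log2 unit in replicate A and by much less in replicate B. By way of Control, the PPO ratio of 1-MCP+O3 over 1-MCP was 1.12 in replicate A and 3.57 in replicate B, beside O3 vs Control ratios of 1.81 and 0.46. In both replicates PPO was therefore higher with O3 than without it, with and without 1-MCP.

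**Figure D3:**
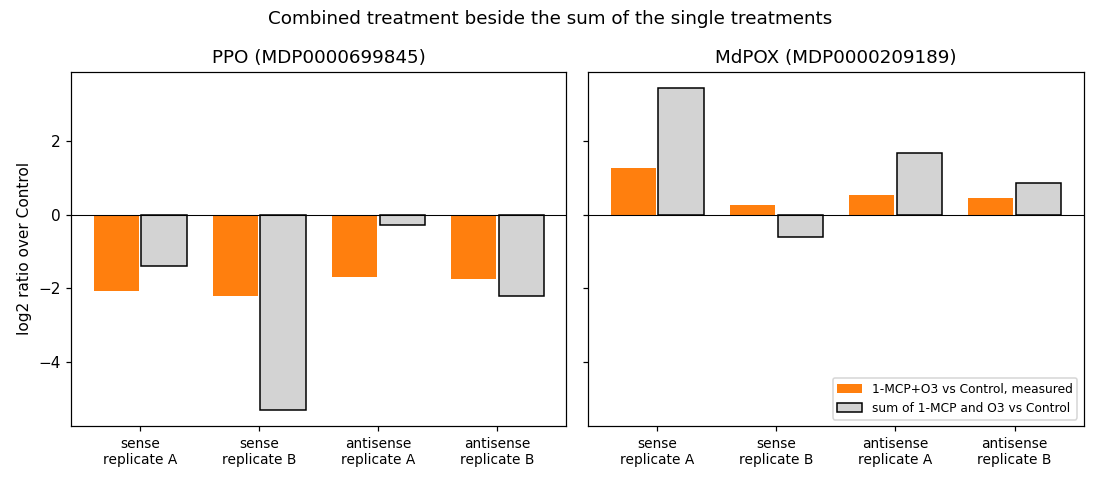
Log2 ratio of 1-MCP+O3 over Control as measured (orange) beside the sum of the 1-MCP and O3 ratios over Control (grey), for the sense and antisense probes of PPO (left) and MdPOX (right) in each replicate. For the PPO sense probe the measured ratios are -2.09 and -2.21 while the sums are -1.40 and -5.32.

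Each gene model also has an antisense probe, of 1 spot, which reads the opposite strand and took no part in choosing the members. The antisense probes had the sign of the sense probe on 8 of 8 arrays for both genes, at lower raw intensities of 126.5 to 5267 for PPO and 135 to 1406 for MdPOX. The PPO antisense probe had log2 ratios of -2.31 and -3.23 in 1-MCP vs Control, and was called down, unlike the sense probe (limma adjusted p = 0.234). It was also called down in 1-MCP+O3 vs Control, at -1.70 and -1.75, and in 1-MCP+O3 vs O3, at -3.08 and -2.51. Its O3 vs Control ratios of 2.05 and 1.01 did not pass (limma adjusted p = 0.723). The antisense signal of PPO thus fell in all 3 comparisons with 1-MCP, and its arrays lay closer together than those of the sense probe in each of them. In 1-MCP peel of replicate B, however, its spot read 126.5 over a background of 79. A signal so near the floor can make the fall look smaller. The processed intensities on that array were 107.9 in 1-MCP peel and 2564 in Control peel.

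The MdPOX antisense probe rose in O3 vs Control, with log2 ratios of 1.32 and 1.73 (called, limma adjusted p = 0.612). In 1-MCP vs Control its ratios had opposite signs, 0.38 and -0.86, as those of the sense probe had. On the direct contrast for additivity, the PPO antisense probe gave -0.03 with an interval of -1.22 to 1.17, narrower than that of the sense probe. Because its signal lay near the floor in 1-MCP peel of replicate B, the narrower interval does not settle additivity. The MdPOX antisense probe gave -0.45 with an interval of -2.09 to 1.19. Which molecules bound the antisense probes was not tested.

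Other enzymes of phenolic oxidation were taken from the study's own gene tables, 6 putative peroxidases and the laccase LAC6, a copper enzyme that oxidizes phenolics with oxygen. The study had picked these genes on the same samples, mostly for a rise after 1-MCP, from genes it had called in any of the 4 comparisons. Neither their calls nor their directions in these comparisons are therefore independent evidence, and the shares of all sense probes below are not those of an unselected list. In 1-MCP vs Control all 7 had a positive ratio and 6 were called up, where 2.26% of sense probes were, with a median log2 ratio of 1.30 beside 0.01 over all sense probes. In O3 vs Control all 7 had a negative ratio and 2 were called down, with a median of -0.95 beside 0.00. The called peroxidases were MDP0000128130, at -1.45 and -1.32, and MDP0000220665, at -1.14 and -0.88, while 0.738% of sense probes were called down. MdPOX rose in the same comparison. In 1-MCP+O3 vs Control 1 of the 7 was called up, the peroxidase MDP0000539299 at 1.12, where 2.05% of sense probes were called up and the list's median was 0.47. In 1-MCP+O3 vs O3, 4 of 7 were called up, with a median of 1.46, and 1.38% of sense probes were.

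LAC6 (MDP0000299358) showed the widest scatter of these oxidases. It was called up in 1-MCP vs Control, at 1.44 and 1.22, but its O3 vs Control ratios were -3.71 and 0.05 and its 1-MCP+O3 vs O3 ratios were 3.70 and -1.49. Its mean values in those comparisons, -1.83 and 1.11, were smaller than the difference between the arrays.

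The enzymes that make phenolics numbered 16 and were chosen in the same way. They were cinnamate 4-hydroxylases of the general phenylpropanoid pathway, enzymes of the lignin branch such as cinnamoyl-CoA reductase, and flavonoid enzymes. In 1-MCP vs Control 12 were called up and 1 down, where 2.26% and 2.37% of sense probes were, with a median of 1.09. The largest ratios were those of 2 dihydroflavonol 4-reductases, enzymes on the way to anthocyanins and tannins, at 2.81 (MDP0000925447) and 2.61 (MDP0000199192). The 1 called down was a chalcone synthase (MDP0000432621), the entry enzyme of the flavonoid pathway. It was not well above background in 1-MCP peel, so that its fall can look smaller than it was. It was 1.88-fold lower in 1-MCP peel than in Control peel (interval -1.25 to -0.56 on the log2 scale). It was called up with O3, at 0.83, as was the flavonoid hydroxylase MDP0000127182, at 1.54. The study's text names this chalcone synthase for its rise with O3, so that its call there is not independent evidence. The cinnamate 4-hydroxylase MDP0000219895 was called down with O3, at -1.03, and the median of the 16 in O3 vs Control was -0.08. Of all sense probes, 1.71% were called up and 0.738% down in that comparison. In 1-MCP+O3 vs Control 7 were called up and none down with a median close to that after 1-MCP alone, where 2.05% of sense probes were called up. In 1-MCP+O3 vs O3 again 7 were called up and none down (median 1.21), where 1.38% of sense probes were called up. Chalcone synthase was thus the 1 gene of this list called in the direction of the PPO ratios after 1-MCP.

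With median centring in place of loess, 1 of the 7 oxidases and 1 of the 16 supply enzymes were called up in 1-MCP vs Control, while the medians were 1.31 and 1.07. The share of all sense probes called under this and the other alternative settings was not counted. A loss of calls over the whole array therefore cannot be told apart from a loss in these lists. No listed gene called as reported changed sign under median centring, scaling between arrays, no background correction or the processed signals.

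Genes that make or remove hydrogen peroxide, the substrate of peroxidases, numbered 4 and were also picked by the study on these samples, so that their direction is not independent evidence either. In 1-MCP vs Control all 4 were called up, where 2.26% of sense probes were, among them the NADPH oxidase RbohE (MDP0000273819), which makes superoxide at the plasma membrane, at 1.56, and the catalase CAT2 (MDP0000699607) at 1.03. These genes were dim apart from a putative glutathione peroxidase (MDP0000338065), which was well above background in all 16 channels and called up at 0.74. RbohE was well above background in 3 of 6 Control and 3 of 4 O3 channels, and CAT2 in 5 of 6 Control and 2 of 4 O3 channels. Peroxiredoxin Q (MDP0000247659), which reduces peroxides in plastids, was not well above background in any Control or O3 channel. Its rise after 1-MCP can therefore look smaller than it was. It was 1.72-fold higher in 1-MCP peel than in Control peel (interval 0.43 to 1.14 on the log2 scale). In O3 vs Control 0 of 4 were called at the 1% threshold by limma, and 0 had an unadjusted p under 0.05. RbohE alone was called up in 1-MCP+O3 vs Control, at 1.49, and in 1-MCP+O3 vs O3, at 1.00, where 2.05% and 1.38% of sense probes were. In each of these comparisons 3 of the 4 were called up with the processed signals and 0 without background correction. The list's medians in 1-MCP vs Control, 1-MCP+O3 vs Control and 1-MCP+O3 vs O3 were 0.91, 0.64 and 0.58 as reported, and 2.53, 1.99 and 2.03 with the processed signals. The HD-ZIP transcription factor gene MDP0000859459, which the study's network tied to PPO, moved opposite to PPO after 1-MCP. It was called up at 3.01 in 1-MCP vs Control, 2.49 in 1-MCP+O3 vs Control and 2.09 in 1-MCP+O3 vs O3, and its O3 vs Control ratio was 0.35.

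**Figure D4:**
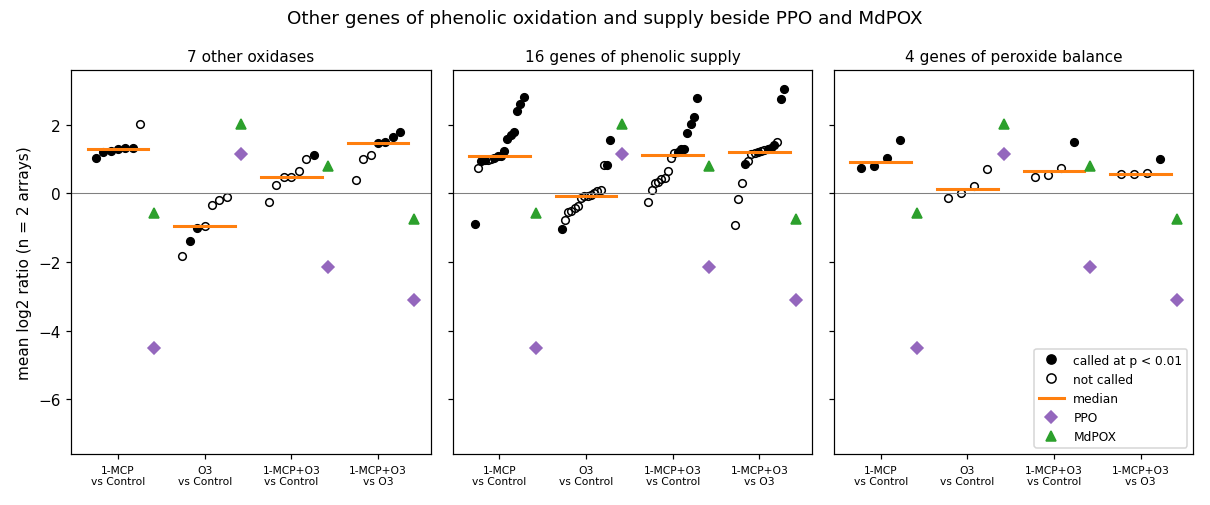
Mean log2 ratio (2 arrays each) of 7 other oxidases, 16 enzymes of phenolic supply and 4 genes of peroxide balance in the 4 comparisons, with medians in orange. Filled circles were called at the unadjusted 1% threshold, diamonds are PPO and triangles MdPOX. After 1-MCP the medians are 1.30, 1.09 and 0.91 and PPO is at -4.50.

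The genes whose levels over the 8 extracts were most like those of a member were sought among the 1325 sense probes above background in at least 4 of 16 channels with an SD of at least 1. For PPO these were MDP0000200442, MDP0000133657 and MDP0000305699, with Pearson correlations of 0.995, 0.994 and 0.994. MDP0000200442 had mean log2 levels of 7.72 in 1-MCP, 10.71 in O3, 8.92 in 1-MCP+O3 and 10.09 in Control peel. Such profiles were common, since 313 of the 1325 probes had a correlation over 0.9 with PPO. For MdPOX the most similar were MDP0000294423 (0.976), MDP0000192012 (0.976) and MDP0000295542 (0.960), and 21 of the 1325 had a correlation over 0.9. MDP0000192012 had mean levels of 8.89 in 1-MCP, 11.30 in O3, 9.87 in 1-MCP+O3 and 9.24 in Control peel. These correlations are descriptions over extracts that fall into 4 groups and share dyes and hybridizations. The ratios of PPO and MdPOX themselves had the same sign on 5 of 8 arrays.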

How the data were processed

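The authors scanned the arrays and extracted the spots with Agilent Feature Extraction 11.5.1.1, per the file headers. The deposited files give, for both dyes, median intensity values of the spots and of the surrounding background as scanned, with no subtraction or normalization. The deposited processed intensity is background-subtracted and dye-normalized by that software. The authors normalized by lowess and tested with limma at an unadjusted p of 1%. Each file holds 14 columns that were used here and 19 other columns of measurements that were not.

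Background was corrected by normexp (offset 50), followed by loess on the log2 ratios array by array (R 4.3.3, limma 3.58.1). Control spots and outlier spots had no weight in the loess and were left out. Spots of 1 probe were averaged and each ratio was given as first-named over second-named group. Each comparison was fitted on its 2 arrays with lmFit and eBayes over all probes, so that the spread of a probe rests on 1 residual degree of freedom and its moderation. A gene was called at an unadjusted p under 0.01, and p-values were adjusted by Benjamini-Hochberg over the whole array of 133709 probes. With limma, 0 sense probes had an adjusted p under 0.05 in any comparison or in the additivity contrast, and 1449 to 7232 had an unadjusted p under 0.05. The additivity contrast used 4 arrays and left 2 residual degrees of freedom. Single-channel levels followed Aquantile normalization, and exact permutation tests ran over 8 extracts. The labels number 2 extracts a group. The study's methods give 2 sampling repetitions for each comparison, without saying whether these were separate lots of fruit. The permutation p-values measure the spread between these extracts. The limma p-values rest on the spread between arrays, in which extract, dye and hybridization are mixed, and on its moderation over all probes. Precision is limited by the small number of arrays.

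The members and gene lists were chosen with earlier results of these data known. Genes named were the members and their antisense probes, the list genes that were called or lay at the ends of a range, and the 3 most similar genes for each member. The methods were tested on simulated data. Alternatives were no background correction, processed signals, median centring, scaling of the arrays to each other, dim probes left out, outliers kept, other limma options, an unmoderated test, an adjusted threshold, joint fits of 8 arrays, quantile normalization, the first hybridization alone, and leaving out each array or extract. Fits on either spot of a probe alone were chosen after seeing the data.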

Additional observations from a re-analysis of the deposited data

Results flagged for a closer look

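PPO, MdPOX and the 28 listed genes, 30 in all, were tested for additivity by the direct contrast. Of these, 2 had a response to 1-MCP that differed between O3 fruit and fruit without O3 at an unadjusted p under 0.01. Neither had an adjusted p under 0.05 in limma. Of all sense probes, 0.441% passed the unadjusted threshold on this contrast. The listed genes had been picked by the study on these samples, so they are not an unselected set beside that share. The putative peroxidase MDP0000282302 had log2 ratios of 0.40 and 0.41 in 1-MCP+O3 vs O3, against 1.06 and 1.41 in 1-MCP vs Control, a difference of -0.84 (limma adjusted p = 1). It was well above background in 15 of 16 channels. The flavonoid hydroxylase MDP0000616265 had log2 ratios of 1.28 and 1.29 in 1-MCP+O3 vs O3, against 2.32 and 2.46 in 1-MCP vs Control, a difference of -1.11 (limma adjusted p = 1). It was not well above background in any O3 or Control channel, so that both rises can look smaller than they were. The rise was 2.43-fold in 1-MCP+O3 vs O3 (interval 0.96 to 1.60 on the log2 scale). In 1-MCP vs Control it was 5.26-fold (interval 2.06 to 2.73). The difference between them has no settled size. The 2 comparisons lay on different slides, which cannot be told apart from the difference. The flagged set depended on the contrast. By the second way, through the sum of the single treatments over Control, MDP0000616265 passed again at -1.05, but MDP0000282302 did not, at -0.66. The putative peroxidase MDP0000539299 passed instead, at 1.05. The share of all sense probes passing by that way was not counted.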

How the results depend on the processing

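For PPO, 1-MCP vs Control was called with dim probes left out (-4.50, limma adjusted p = 0.101), with limma's trend and robust options (-4.50, adjusted p = 0.000205), in the joint fits of 8 arrays without a dye term and with replicate block (-4.50 each), with replicate block for each slide (-4.50), and with either array left out (-5.78 to -3.21). O3 vs Control was called for PPO (1.08, limma adjusted p = 0.0901) with replicate block for each slide. PPO in 1-MCP+O3 vs Control lost its call with median centring (-1.82), with the unmoderated test (-2.15), at an adjusted p under 0.05 (-2.15) and without either array (-2.21 to -2.09). PPO in 1-MCP+O3 vs O3 lost it without background correction (-3.13), with the unmoderated test (-3.12), at an adjusted p under 0.05 (-3.12), with the second spot alone (-3.19) and without either array (-3.73 to -2.50). MdPOX in O3 vs Control lost it with median centring (1.84), the unmoderated test (2.01), an adjusted p under 0.05 (2.01), the joint fit without a dye term (1.86), the first spot alone (1.95) and without either array (1.57 to 2.45). MdPOX in 1-MCP+O3 vs Control was called with the second spot alone (1.21). The causes were not tested, except that fits without 1 array have fewer samples. PPO kept its call in 1-MCP+O3 vs Control in 11 of 16 alternatives and in 1-MCP+O3 vs O3 in 10 of 16. MdPOX kept its call in O3 vs Control in 9 of 16. The lowest limma adjusted p was 0.00554 and 0.00122 for PPO, with replicate block for each slide, and 0.0255 for MdPOX, with trend and robust options. The joint fits take repeated hybridizations of an extract as independent.

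Direction changed in 3 results of MdPOX, each with 1 array or extract left out. Its 1-MCP vs Control ratio ran from -2.18 to 1.01 over the arrays left out, its additivity contrast from -1.77 to 1.41 (0.47 without 1-MCP+O3 vs O3 replicate B), and its 1-MCP difference over extracts from -1.21 to 0.15. The other alternatives kept the direction of every PPO and MdPOX value. The additivity contrast of PPO stayed above 0 in all 20 alternatives, from 0.10 to 2.66, and was called in none of them. Several of these change only the test and so repeat the mean of 1.38. None used replicate A alone, where the difference was -0.52, beside 3.28 in replicate B. The PPO antisense probe gave -0.03, so that the kept sign does not settle a direction. Of the listed genes called up in 1-MCP vs Control, 12 of phenolic supply, 6 oxidases and 4 of peroxide balance as reported, median centring left 1, 1 and 0, and the processed signals 4, 2 and 2. In 1-MCP+O3 vs O3 median centring called 1 gene of phenolic supply and 0 oxidases, against 7 and 4 as reported, and lost the HD-ZIP gene, with medians of 1.30 for phenolic supply and 1.56 for oxidases, against 1.21 and 1.46 as reported. No called gene of the lists changed sign under these settings, and the shares of all sense probes called under them were not counted.

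Nothing in the labels says that a replicate letter marks a shared batch. Differences between extracts A and B correlated at 0.652 between 1-MCP+O3 and 1-MCP, over sense probes above background in at least 4 of 16 channels. These groups had the same dyes. Control, with the dyes the other way, gave correlations of -0.509 and -0.517 with these groups, so that letter and dye cannot be told apart there. The O3 extracts, read in both dyes, gave -0.208 with 1-MCP, -0.38 with 1-MCP+O3 and 0.25 with Control. Whether the letter marks a batch was not tested. In the joint fit with replicate block, which is also a dye term, the additivity contrast was 1.32 for PPO (limma adjusted p = 0.885) and -0.33 for MdPOX (adjusted p = 0.99). Beside the calls given above, the replicate block changed no other call. With 2 arrays a comparison, and 2 extracts a group, a missing call says little.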
